A study of Mus musculus with 22 samples.

Results

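The genes described here are 9 markers of the pyramidal neurons of the hippocampus, 5 of field CA1 (Wfs1, Pou3f1, Fibcd1, Mpped1 and Man1a) and 4 of field CA3 (Bok, Nptx1, Iyd and Spock1). They were chosen by name, and every non-control probe of an Agilent whole mouse genome array that is annotated to a RefSeq transcript of these genes was taken. The 9 genes are among 21154 with a probe on the array, and they have 11 of its 55681 non-control probes, with 2 probes for Man1a, 2 for Spock1 and 1 for each of the other genes. Whole hippocampus of the right hemisphere was compared between TgproNGF#3 mice and wild-type (WT) mice at 3 ages, 1 mouse per array, on 22 arrays. The groups held 4 TgproNGF#3 and 4 WT males at 1 month, 4 and 4 males at 3 months, and 3 and 3 females at 12 months, all untreated and of the strain C57Bl/6xDBA/2. TgproNGF#3 is a single founder line that carries a furin-resistant pre-proNGF cDNA, followed by an IRES and EGFP, under the Thy1.2 promoter, which is active in many projection neurons of the adult brain. The arrays of an age share 1 slide that holds no other age, and a difference between ages therefore cannot be told apart from one between slides or, at 12 months, between sexes.

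Pyramidal neurons are the glutamatergic principal cells of the hippocampus. Cells of CA3 receive the mossy fibers of the dentate granule neurons and send Schaffer collaterals to CA1, and cells of CA1 form the main output of the hippocampus proper. The fields differ in gene expression, so that transcripts such as Wfs1 in CA1 or Bok in CA3 are used to tell them apart in tissue sections. In RNA from the whole hippocampus, fewer cells of a field and less RNA per cell cannot be told apart.

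The values below are levels on the log2 scale, each being the background-subtracted intensity of a probe scaled to the upper quartile (75th percentile) of all spots well above background on the same array. A level of 0 therefore equals that percentile, and a difference of 1 between groups is a doubling. Between 57.6% and 80.27% of the non-control spots of an array were well above background, lowest on TgproNGF#3 replicate 4 of 3 months. Probes of 8 of the 9 genes, all but Iyd, were well above background on all 22 arrays, as were all 9 pan-neuronal markers and 10 of 11 dentate granule markers examined beside them. Iyd, which encodes iodotyrosine deiodinase, was measured on 6 arrays, all of 1 month. The genotype is taken from the labels. The level of the endogenous Thy1, whose promoter drives the transgene, overlapped between genotypes, from 5.14 to 5.70 in TgproNGF#3 and from 5.18 to 5.74 in WT mice at 3 months.

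A probe of each of 3 members, Spock1, Fibcd1 and Man1a, passed the adjusted threshold as lower in TgproNGF#3 mice at 3 months, and the bases before their start sites are shown for that reason. For Man1a this was the dimmer of 2 probes, and its main probe did not pass. For each, 150 bases upstream of the start site in the RefSeq table are given 5′ to 3′ on the strand of the gene (build GRCm38.p6), with GC boxes (GGGCGG on either strand, so that CCGCCC is also counted) in capitals. The windows are chr13:57908333-57908482 for Spock1, chr2:31846006-31846155 for Fibcd1 and chr10:54075738-54075887 for Man1a, all on the minus strand. The window of Spock1 directly precedes the annotated gene, and those of Fibcd1 and Man1a lie within the annotated span of the gene, which begins further upstream.
Spock1: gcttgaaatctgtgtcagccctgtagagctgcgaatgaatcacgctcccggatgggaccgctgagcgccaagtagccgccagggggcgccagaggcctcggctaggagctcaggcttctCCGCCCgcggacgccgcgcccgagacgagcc
Fibcd1: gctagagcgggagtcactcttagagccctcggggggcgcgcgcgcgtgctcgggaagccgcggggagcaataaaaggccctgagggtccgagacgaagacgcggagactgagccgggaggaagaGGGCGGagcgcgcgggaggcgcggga
Man1a: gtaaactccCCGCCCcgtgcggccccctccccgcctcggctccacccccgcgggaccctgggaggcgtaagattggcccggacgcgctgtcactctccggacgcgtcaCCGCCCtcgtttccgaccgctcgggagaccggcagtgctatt
Spock1 and Fibcd1 hold 1 GC box each and Man1a holds 2, and 28.6% of the 32851 windows of this length in the table hold at least 1. Their GC content is 68.0%, 71.3% and 72.0%, against a median of 54.0% over all windows. Neither a TATA box (TATAAA on either strand, in 7.57% of windows) nor the E-box CAGCTG (8.39% of windows) occurs in these 3. Of the 9 genes, 7 have an entry in the table, the exceptions being Pou3f1 and Nptx1.

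Spock1 had the largest genotype difference among the members at 3 months. It encodes testican-1, a secreted proteoglycan of the brain's extracellular matrix, and is a marker of CA3 here. At 3 months its main probe (A_51_P298837) read -3.87, -2.40, -3.02 and -3.70 in the 4 TgproNGF#3 mice and -0.99, -0.71, -1.23 and -1.08 in the 4 WT mice. All 4 TgproNGF#3 values lay below the lowest WT value by more than 1 log2 unit. The mean difference was -2.24 (SE 0.305, 95% interval -2.93 to -1.56, n = 4 and 4), so that WT mice had 4.74 times the level of TgproNGF#3 mice, with an adjusted p of 0.00415 in the limma fit over 33593 probes. Of these probes, 236 had a more negative difference. The two-sided exact permutation test gave p = 0.029, the smallest that 4 against 4 mice allow. Within the array rows of the slide, which hold 2 mice of each genotype, the difference was -2.28 and -2.20.

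The same Spock1 probe was higher in TgproNGF#3 mice at the other ages, without passing the adjusted threshold. At 1 month it read -0.35, -0.41, -0.52 and -0.37 in TgproNGF#3 mice and -0.61, -0.73, -1.18 and -0.93 in WT mice, and the groups did not overlap. The difference was 0.45 (SE 0.173, 95% interval 0.07 to 0.84), with an adjusted p of 1.0 by limma and an exact permutation p of 0.029. At 12 months it read -0.70, -0.91 and -0.38 in TgproNGF#3 mice and -1.69, -1.21 and -1.17 in WT mice, again without overlap. The difference was 0.70 (SE 0.205, 95% interval 0.22 to 1.18), with an adjusted p of 0.549 by limma and an exact permutation p of 0.1, the smallest that 3 against 3 allow. The genotype difference itself differed between ages: it was lower at 3 months than at 1 month by -2.70 (SE 0.34, adjusted p = 9.17e-05 in the limma fit over all 22 arrays) and higher at 12 months than at 3 months by 2.94 (SE 0.366, adjusted p = 9.45e-05). The 12-month and 1-month differences were 0.25 apart (SE 0.368, adjusted p = 1.0). In the order of the 6 group means, TgproNGF#3 at 3 months (-3.25 ± 0.677, SD, n = 4) was lowest and did not overlap the next group, WT at 12 months (-1.36 ± 0.29, SD, n = 3), while each of the other 5 groups overlapped its neighbour in that order.

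The second Spock1 probe (A_55_P2048640), annotated to another RefSeq transcript of the gene, did not show the 3-month difference. It was dim, being well above background on 17 of 22 arrays. At 3 months it was measured in 3 TgproNGF#3 mice (-6.02, -6.55 and -6.23) and in 1 WT mouse (-6.50), so that more TgproNGF#3 than WT arrays gave a value, and it was left out of the fit by the minimum of 2 values per group. Its difference was 0.19 (95% interval -0.35 to 0.74) at 1 month and -0.01 (95% interval -0.61 to 0.59, n = 3 and 2) at 12 months. The fall of Spock1 at 3 months thus rests on the brighter of its 2 probes.

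**Figure D1:**
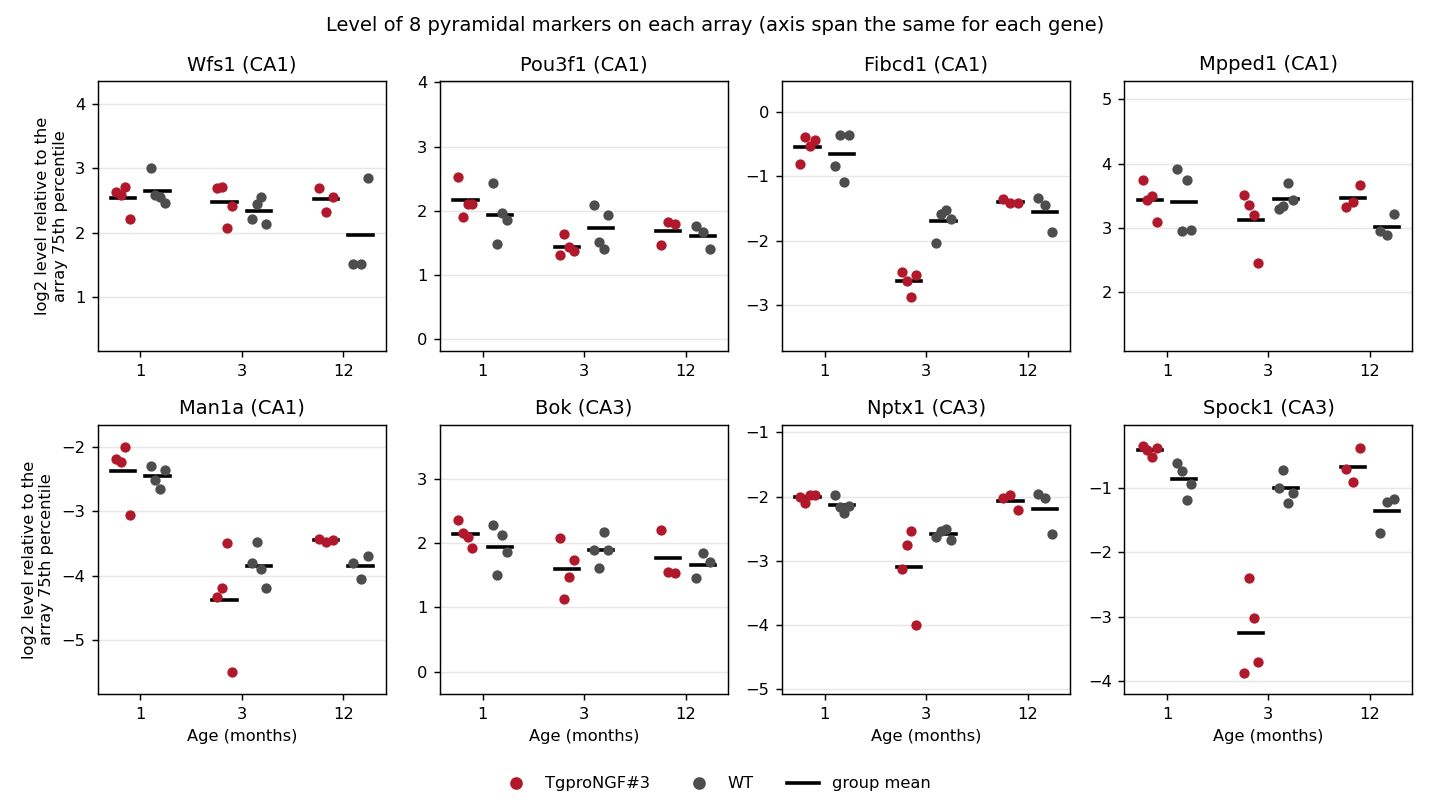
Level of the main probe of 8 members on each array (log2 relative to the array's 75th percentile, vertical axis) by age in months (horizontal axis), with 1 point per mouse, TgproNGF#3 in red, WT in grey and the group mean as a bar; each axis spans the same number of log2 units. At 3 months the TgproNGF#3 points of Spock1 (-3.87 to -2.40) and Fibcd1 (-2.88 to -2.49) lie below all WT points of that age.

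Among the CA1 markers, Fibcd1 fell at 3 months. It encodes a membrane receptor that binds acetylated structures such as chitin, and its transcript is strong in CA1. Its probe (A_51_P271417) read -2.49, -2.63, -2.88 and -2.53 in TgproNGF#3 mice and -2.03, -1.59, -1.52 and -1.66 in WT mice. The highest TgproNGF#3 value lay below the lowest WT value, which was that of replicate 1. The difference was -0.93 (SE 0.159, 95% interval -1.29 to -0.58, adjusted p = 0.00942 by limma, exact permutation p = 0.029), or 1.91 times more in WT mice, and it was -0.75 and -1.11 within the array rows. At 1 month the difference was 0.12 (95% interval -0.35 to 0.59) and at 12 months 0.16 (95% interval -0.24 to 0.55). The 3-month difference was lower than that of 1 month by -1.05 (SE 0.248, adjusted p = 0.0217, limma), and the 12-month difference was higher than that of 3 months by 1.09 (SE 0.268, adjusted p = 0.021, or 0.0537 without WT replicate 3 of 12 months). Neither of these age differences of Fibcd1 passed the threshold with the scaling to the upper quartile of every spot (adjusted p = 0.158 and 0.088) or in the log2 values the authors deposited (0.131 and 0.0924). In the order of the means, both 1-month groups stood above all others, and TgproNGF#3 at 3 months (-2.64 ± 0.172, SD, n = 4) stood below WT at 3 months (-1.70 ± 0.226, SD, n = 4) without overlap.

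Man1a encodes a Golgi alpha-mannosidase that trims N-linked glycans, and its 2 probes shared a sign but not a call at 3 months. The main probe (A_52_P171019) read -4.33, -4.19, -3.50 and -5.50 in TgproNGF#3 mice and -3.81, -3.48, -3.90 and -4.19 in WT mice. The groups overlapped, and TgproNGF#3 replicate 4 was lowest. The difference was -0.53 (SE 0.368, 95% interval -1.36 to 0.29, adjusted p = 0.38 by limma), or -0.16 without that mouse. The second, dimmer probe (A_52_P260105) read -6.22, -5.92 and -5.75 in TgproNGF#3 mice, was not well above background in replicate 4, and read -4.77, -5.37, -4.91 and -5.08 in WT mice. Its difference over these 3 and 4 mice was -0.93 (SE 0.195, adjusted p = 0.025), a call that was lost with dim spots kept (adjusted p = 0.143), with the normexp background correction (0.15) and without TgproNGF#3 replicate 1 or 2 or WT replicate 1, 3 or 4 (adjusted p from 0.0588 to 0.0784). At 12 months the main probe read -3.43, -3.48 and -3.44 in TgproNGF#3 mice and -3.81, -4.06 and -3.70 in WT mice, higher without overlap by 0.40 (SE 0.144, adjusted p = 0.549), whereas the second probe differed by 0.10 (SE 0.233) with overlapping groups.

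The other 3 CA1 markers did not pass the adjusted threshold at any age. Mpped1, which encodes a metallophosphoesterase domain protein, differed by 0.04 at 1 month (95% interval -0.54 to 0.63) and by -0.31 at 3 months (95% interval -0.83 to 0.21), or -0.09 without TgproNGF#3 replicate 4. At 12 months Mpped1 read 3.32, 3.40 and 3.67 in TgproNGF#3 mice and 2.95, 2.89 and 3.22 in WT mice, higher without overlap by 0.44 (SE 0.161, adjusted p = 0.549, limma). Pou3f1, a POU-domain transcription factor, differed by 0.23 (95% interval -0.28 to 0.73), -0.30 (95% interval -0.71 to 0.11) and 0.08 (95% interval -0.30 to 0.47) at 1, 3 and 12 months. Wfs1 encodes wolframin, a membrane protein of the endoplasmic reticulum, and differed by -0.11 (95% interval -0.53 to 0.31) and 0.14 (95% interval -0.26 to 0.55) at 1 and 3 months. At 12 months Wfs1 read 2.70, 2.32 and 2.55 in TgproNGF#3 mice and 1.52, 1.51 and 2.85 in WT mice, a difference of 0.57 (95% interval -0.27 to 1.40). The WT mice split, with replicates 1 and 2 in array row 1 and replicate 3 in row 2 together with all TgproNGF#3 mice of that age, and within row 2 the Wfs1 difference was -0.32.

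Apart from Spock1, the CA3 markers did not pass the adjusted threshold either. Nptx1, a secreted neuronal pentraxin that acts at excitatory synapses, read -3.13, -2.75, -2.53 and -4.00 in TgproNGF#3 mice and -2.63, -2.54, -2.50 and -2.68 in WT mice at 3 months. The WT mice were close together, and TgproNGF#3 replicate 4 was far below them. The difference was -0.51 (95% interval -1.15 to 0.12, adjusted p = 0.273 by limma), or -0.21 without that mouse, against 0.12 (95% interval -0.21 to 0.45) at 1 month and 0.11 (95% interval -0.34 to 0.57) at 12 months. Bok, a member of the BCL2 family, differed by 0.20 (95% interval -0.26 to 0.65), -0.29 (95% interval -0.78 to 0.20) and 0.10 (95% interval -0.42 to 0.61) at 1, 3 and 12 months. The 3-month value of Bok was -0.45 without TgproNGF#3 replicate 1 and -0.13 without replicate 2. Iyd was measured in 3 TgproNGF#3 mice (-7.23, -7.02 and -6.95) and 3 WT mice (-6.72, -7.16 and -6.94) at 1 month, with a difference of -0.13 (95% interval -0.61 to 0.36). It was not well above background on any array of 3 or 12 months, and no difference is given there.

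**Figure D2:**
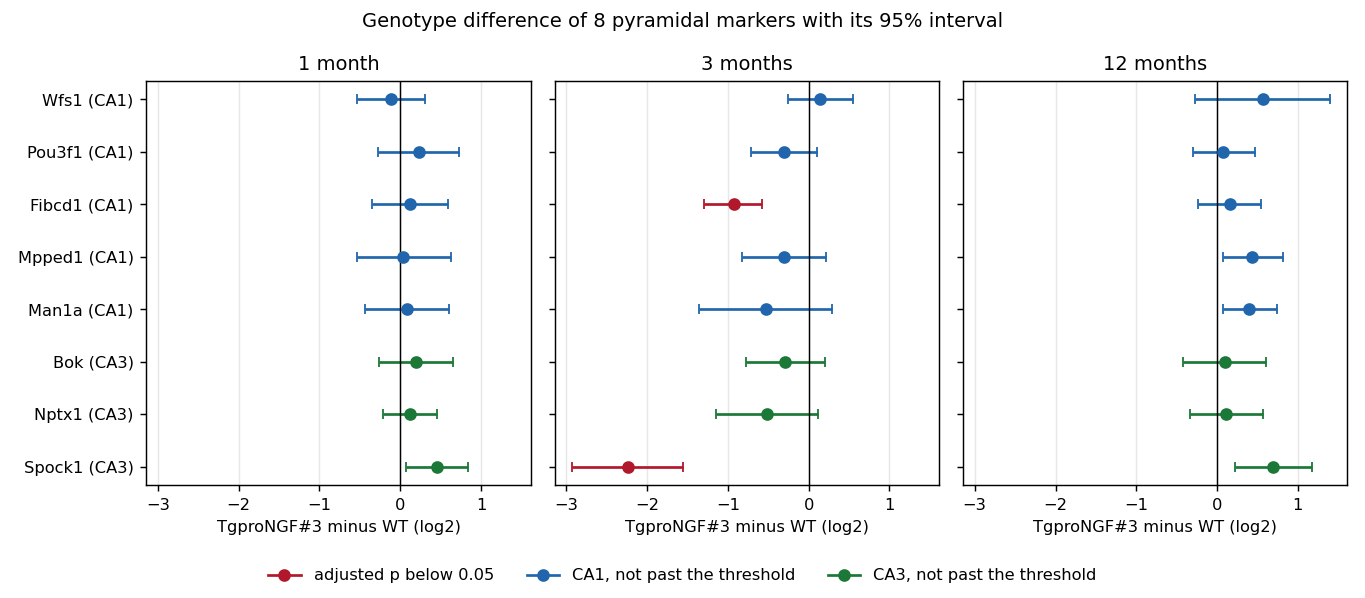
Difference between TgproNGF#3 and WT (log2, horizontal axis) of the main probe of 8 members at each age, with bars for the 95% interval of the limma fit, red where the adjusted p is below 0.05, blue for other CA1 and green for other CA3 markers. Spock1 (-2.24) and Fibcd1 (-0.93) at 3 months are the red points; at 12 months all 8 points lie above 0.

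Counted together, 8 of the 9 member probes tested at 3 months, or 7 of the 8 main probes, were lower in TgproNGF#3 mice. The median difference of all probes was below 0 as well. Of the member probes, 3 (Spock1, Fibcd1 and the second Man1a probe) passed the adjusted threshold, against 6.85% of all probes called lower and 1.57% called higher. With the study's thresholds, an unadjusted p below 0.05 and a change beyond 1 on the log2 scale, 1 member probe (Spock1) was called, against 6.12% of all probes lower. Groups did not overlap for these same 3 probes, against 14.6% of all probes that were lower without overlap, and 27.2% of all probes had an unadjusted p below 0.05. The median difference of the 8 main probes was -0.41, against -0.12 over all probes tested. By field, the medians were -0.31 over the 5 CA1 markers and -0.51 over the 3 CA3 markers measured. Without TgproNGF#3 replicate 4 the medians were -0.24 over the 8 main probes, -0.16 over the CA1 markers and -0.34 over the CA3 markers, against -0.064 over all probes.

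At 1 month 11 member probes were tested, and neither the adjusted threshold nor the study's thresholds called any, against 0% and 0.570% of all 40536 probes. Spock1 was the single member with an unadjusted p below 0.05 (3.47% of all probes) and the single member higher without overlap (2.00% of all probes). At 12 months 10 were tested and again none was called by either rule, against 0% and 1.30% of all probes. All 8 main probes had a positive difference at 12 months, with a median of 0.28 against 0.01 over all 34064 probes. That median was 0.15 with normexp background correction, where the median of all probes was -0.068, and 0.43 with scaling to the array median, where it was 0.155. Some other neuronal lists also leaned that way at 12 months with no gene called, since 9 of 9 pan-neuronal genes (median 0.31), 8 of 9 GABAergic genes (median 0.48) and 10 of 13 other CA pyramidal genes (median 0.24) had a positive difference, against a median of 0.06 over all genes. The dentate granule list (4 of 11 positive, median -0.06) and the CA2 list (5 of 10 positive, median 0.02) did not. The choroid plexus list (10 of 10 lower, median -0.99), the leptomeningeal list (10 of 11 lower, median -1.27) and the oligodendrocyte list (9 of 10 lower, median -0.21) leaned the other way, with no gene past the adjusted threshold, and the study's thresholds called 7 leptomeningeal genes lower. Without WT replicate 3, 5 of the 8 main probes were positive. Spock1, Mpped1 and Man1a were higher without overlap (7.42% of all probes were) and had an unadjusted p below 0.05 (9.05% of all probes). All 3 TgproNGF#3 arrays of that age lie in array row 2 with WT replicate 3 alone, and with the row as a block the differences were 0.51 for Spock1, 0.24 for Mpped1, 0.25 for Man1a and -0.32 for Wfs1. Differences between ages called 2 member probes, Spock1 and Fibcd1, for 3 months minus 1 month, against 2.68% of all probes, the same 2 for 12 months minus 3 months, against 4.52%, and none for 12 months minus 1 month, against 0%. The comparisons between ages share the arrays of the common age.

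The balance between the fields was read on each array as the mean level of the 5 CA1 markers minus that of the 3 CA3 markers measured on every array, which does not depend on the scaling of the array. At 3 months it was 1.78, 1.52, 1.43 and 1.63 in TgproNGF#3 mice and 0.93, 0.99, 0.96 and 0.95 in WT mice, without overlap. Without Spock1 it was 0.67, 0.99, 0.60 and 0.77 against 0.72, 0.91, 0.61 and 0.73, and the genotypes overlapped. The 3-month separation was therefore not seen without Spock1. At 1 month the TgproNGF#3 values, 1.19, 1.18, 1.29 and 0.92, lay just below the WT values, 1.35, 1.30, 1.35 and 1.32, and without Spock1 they overlapped. At 12 months the values were 0.72, 0.98 and 0.98 against 0.95, 0.57 and 1.07. Taken alone, the CA1 mean was lower in TgproNGF#3 mice at 3 months (-0.36 to 0.18 against 0.33 to 0.45) and higher at 12 months (0.53 to 0.63 against 0.11 to 0.38), without overlap at either age. The CA3 mean was also lower at 3 months (-1.99 to -1.34 against -0.62 to -0.52) and higher at 12 months (-0.45 to -0.17 against -0.73 to -0.46). Without Fibcd1 the CA1 mean overlapped at 3 months (0.19 to 0.88 against 0.83 to 0.95) and was still apart at 12 months (1.02 to 1.14 against 0.50 to 0.94). The 12-month WT value of 0.94 came from array row 2, which holds all TgproNGF#3 arrays of that age. Those of 0.61 and 0.50 came from row 1, so that genotype and row are not separated there. Without Spock1 the CA3 mean, then of Bok and Nptx1 alone, was still apart at 3 months (-1.13 to -0.52 against -0.46 to -0.16). It overlapped at 12 months (-0.34 to 0.09 against -0.44 to -0.09). Bok and Nptx1 each overlapped between genotypes at 3 months and neither was called. At that age 14.6% of all probes were lower without overlap.

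**Figure D3:**
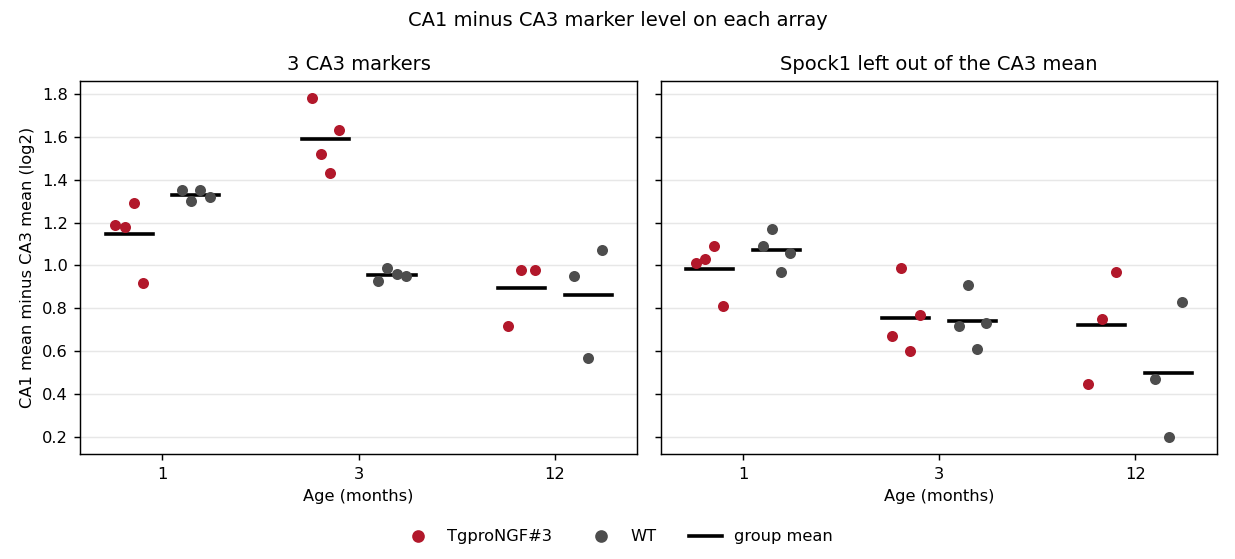
Mean level of 5 CA1 markers minus mean level of the CA3 markers (log2, vertical axis) on each array by age in months (horizontal axis), with all 3 measured CA3 markers on the left and without Spock1 on the right; points are mice and bars are group means. At 3 months the genotypes are apart on the left (1.43 to 1.78 against 0.93 to 0.99) and overlap on the right.

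Across arrays the markers of a field did not move closely together. With the group means subtracted, Pearson's r over the 22 arrays ranged from -0.52 to 0.49 for the 10 pairs of CA1 markers (median -0.06), from -0.51 to 0.41 for the 3 pairs of CA3 markers, and from -0.30 to 0.69 for the 15 pairs between fields (median 0.18), the highest being Man1a with Nptx1. The genes most like each member, by Pearson's r over 22 arrays after the mean of each age was subtracted, were found among 14507 genes on all arrays. They were Gatd1 (0.962) and Snd1 (0.958) for Spock1, Mief2 (0.884) and Mast3 (0.877) for Fibcd1, and Tppp (0.909) and Klhl24 (0.877) for Man1a. For the others they were Tmed5 (0.951) and Nlgn1 (0.929) for Mpped1, Rab7 (0.923) and Hira (0.914) for Nptx1, Nasp (0.857) and Sdcbp (0.853) for Bok, Lmo1 (0.884) and Akr1c18 (0.874) for Pou3f1, and Ccdc166 (0.894) for Wfs1. These points share slides and genotypes, and the values are descriptions.

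Other markers of CA pyramidal neurons included 3 that fell at 3 months and none that rose, of 14 tested. This compares with 6.85% of all probes called lower and 1.57% called higher. The 14 genes had a median of -0.20 against -0.05 over all 15724 genes. Among them, Spink8, a serine protease inhibitor enriched in CA1, differed by -0.78 (SE 0.17, adjusted p = 0.0253, limma), and Grik4, a kainate receptor subunit enriched in CA3, by -0.64 (SE 0.166, adjusted p = 0.0465). The call of Grik4 was lost under 8 of 12 alternative settings (adjusted p from 0.051 to 0.139) and on leaving out 7 of the 8 mice in turn, and that of Spink8 under 3 settings (0.0626 to 0.108) and on leaving out 4 mice. The count of 3 became 1 with the scaling to the upper quartile of every spot, 0 without TgproNGF#3 replicate 1, and 1 without TgproNGF#3 replicate 2, WT replicate 1, WT replicate 3 or WT replicate 4. Of 10 CA2 markers, Amigo2, a cell adhesion molecule, fell by 1.80 (SE 0.356, adjusted p = 0.0173; 0.0537 without TgproNGF#3 replicate 1 and 0.0539 without WT replicate 4), and the list's median was 0.03. At 1 and 12 months none of the other CA pyramidal or CA2 markers was called.

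Markers of other cells were examined in the same fit at 3 months, in which 6.85% of all probes were called lower and 1.57% higher. In the dentate list 1 of 10 genes fell, Maml2, a coactivator of Notch, by 3.14 (SE 0.25, adjusted p = 0.000654), and the mean level of the list's genes ran from -1.94 to -1.67 in TgproNGF#3 mice and from -1.49 to -1.14 in WT mice, without overlap. The list's median difference was -0.19, with 7 genes lower and 3 higher, and without Maml2 the mean of the other 9 overlapped, from -1.44 to -1.25 against -1.33 to -0.98. Among 9 pan-neuronal genes, Map2, a microtubule-associated protein of dendrites, fell by 0.93 (SE 0.141, adjusted p = 0.00611), and the list's mean level ran from 3.28 to 3.47 and from 3.45 to 3.79. Of the 8 endothelial genes, Cdh5, the cadherin of endothelial junctions, fell by 2.07 (SE 0.381, adjusted p = 0.0126). In the lists of neighbouring tissue, Lamp5 of the cortex rose by 0.95 (SE 0.17, adjusted p = 0.0116), and of the thalamic genes Slc17a6 rose by 0.66 (adjusted p = 0.0455) while Tcf7l2 fell by 0.70 (adjusted p = 0.0312). Opalin rose among 10 oligodendrocyte genes by 0.73, with an adjusted p that rounds to 0.05, and Islr among 11 leptomeningeal genes by 0.75 (adjusted p = 0.0213). The call of Lamp5 was lost without WT replicate 4 (adjusted p = 0.0513), and the calls of Islr, Tcf7l2, Slc17a6 and Opalin were lost on leaving out 4, 6, 7 and 7 of the 8 mice in turn. Of the 12 alternative settings, 5 lost the call of Tcf7l2, 4 that of Slc17a6, 8 that of Opalin and 1 each those of Islr and Lamp5. None of the 9 GABAergic, 9 astrocyte, 8 microglial or 10 choroid plexus genes tested was called, with medians of 0.24, -0.34, 0.01 and -0.92.

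Markers of tissue that borders the hippocampus varied between arrays. The mean level of 10 choroid plexus markers ranged from -3.05 to 1.43 in TgproNGF#3 mice and from 0.45 to 1.14 in WT mice at 3 months, with replicate 2 lowest, and TgproNGF#3 replicate 2 was also the highest of its group for Spock1. The mean of the 11 leptomeningeal markers ran from -1.13 to -0.31 and from -1.45 to -0.86 at 3 months, and from -2.41 to -1.83 and from -1.30 to -0.65 at 12 months, when it was lower in TgproNGF#3 mice without overlap. The mean of the 9 astrocyte markers was also lower without overlap at 3 months, from 1.22 to 1.59 against 1.65 to 1.72. That of the 8 endothelial markers was likewise lower without overlap, from -1.0 to -0.57 against -0.48 to -0.40. Of these 8, 4 were lower and 4 higher, with a median difference of -0.10, and without Cdh5 the mean of the other 7 overlapped, from -0.37 to -0.17 against -0.21 to -0.14. Their part in the results of the pyramidal markers was not tested. Without TgproNGF#3 replicate 2 of 3 months the difference was -2.53 for Spock1 and -0.93 for Fibcd1, and without replicate 4, the array with the fewest spots above background, it was -2.09 and -0.97, and both remained past the adjusted threshold.

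**Figure D4:**
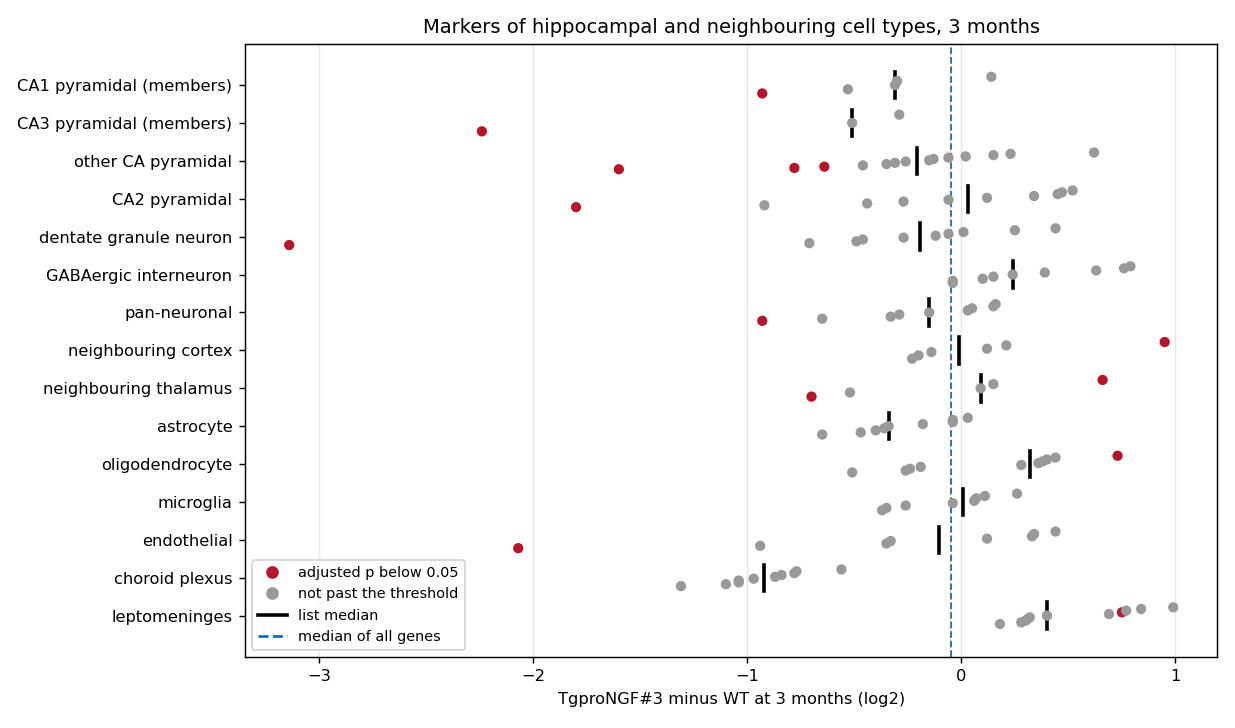
Difference between TgproNGF#3 and WT at 3 months (log2, horizontal axis) of each gene tested in 15 marker lists (vertical axis), with 1 probe per gene, red where the adjusted p is below 0.05, a black bar for the list median and a dashed line for the median of all genes (-0.05). The medians of the CA1 and CA3 markers (-0.31 and -0.51) lie to the left of that line, that of the choroid plexus list (-0.92) lies further left with no gene called, and that of the leptomeninges (0.40) lies to the right.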

How the data were processed

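Total RNA of hippocampus was labelled with Cy3 and hybridized to one-colour Agilent arrays, 1 mouse per array. The authors deposited, per spot, the processed intensity of Agilent Feature Extraction (background subtracted, spatially detrended, not scaled between arrays) and a smaller table of log2 values shifted to a common 75th percentile. These deposited log2 values served as an alternative. Control spots, dim spots (those the software did not mark as well above background) and outlier spots were dropped. The 75th percentile of an array was subtracted from its log2 intensities, and spots of a probe were averaged. Where a gene has several probes, the brightest over all arrays is its main probe, and each probe is given.

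At each age a two-sided moderated test of TgproNGF#3 against WT was run with limma (version 3.58.1, R 4.3.3) on every probe that had 2 or more values per group, and p-values were adjusted by Benjamini-Hochberg over all probes tested. The threshold was an adjusted p of 0.05. The study's thresholds (unadjusted p of 0.05 and a log2 change of 1) are given beside it. Differences between ages are contrasts in a fit over all 22 arrays. Single probes measured on all arrays of an age also have a two-sided exact permutation test. The labels number the mice within each group and do not say whether they share litters, and p-values measure the spread between mice.

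Replicate numbers were checked for pairing before calls were compared. Deviations from the group means correlated between arrays of the same number by 0.191 to 0.511 at 1 month (4 pairs, 36103 probes). The range was -0.356 to -0.023 at 3 months and -0.316 to 0.05 at 12 months. Arrays of the same number share an array row at 1 and 3 months, and at 12 months only those of replicate 3 do. At 1 month, arrays of different number and row also correlated, by 0.356 for TgproNGF#3 replicate 1 with WT replicate 3. That is above the 0.191 of the arrays numbered 3. Whether the numbers pair the arrays at 1 month is therefore not settled. The main fits and the permutation tests treat the mice of every age as unpaired.

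The members and marker lists were chosen with earlier results of these data known. Genes named beside the members are, per list and age, at most 4 with an adjusted p below 0.05, the 2 genes most correlated with each member, and Thy1. The results of some genes that this rule names are not reported here. Lists covered other CA pyramidal, CA2, dentate granule, GABAergic and pan-neuronal genes, neighbouring cortex and thalamus, astrocytes, oligodendrocytes, microglia, endothelium, choroid plexus and leptomeninges. They were not tested as sets.

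Symbols, gene positions and promoter sequences are from RefSeq tables (GRCm38.p6). In simulated data with the groups of 3 months, 82% of probes changed by 2 on the log2 scale and 39% of those changed by 1 were recovered at the adjusted threshold, and 0.018% of unchanged probes were called. The number of arrays limits the precision. Alternatives changed the filter on dim or outlier spots, the scaling (other percentile, median, quantile), the background correction (normexp, offset 50, on the median signals the files hold), the arrays in the fit, blocks for replicate number or array row, array weights, and each mouse left out in turn. The effect on the CA1 minus CA3 level, on the means and medians of these markers and on the other CA pyramidal list was added after seeing the data. Figures were drawn with matplotlib 3.10.9.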

Additional observations from a re-analysis of the deposited data

Results flagged for a closer look

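The genotype difference of 2 members differed between ages in the limma fit over all 22 arrays. For Spock1 the 3-month difference minus that of 1 month was -2.70 (adjusted p = 9.17e-05), and the 12-month difference minus that of 3 months was 2.94 (adjusted p = 9.45e-05). For Fibcd1 the same contrasts were -1.05 (adjusted p = 0.0217) and 1.09 (adjusted p = 0.021). Age cannot be told apart from slide, and at 12 months also not from sex. In 37 groups of 4 arrays of the member probes, Dixon's test at the 95% level found 0 with a mouse standing apart, where chance would flag about 1 in 20 groups, and groups of 3 were not tested.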

How the results depend on the processing

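Spock1 at 3 months kept its direction and stayed past the adjusted threshold under all 12 alternatives (-2.25 to -1.90, adjusted p up to 0.0215) and without each mouse (-2.53 to -2.04). Fibcd1 at 3 months did so except with the replicate block (-0.93, adjusted p = 0.0659), and without each mouse it ran from -1.04 to -0.85. The replicate numbers pair the arrays at 1 month only, where the replicate block called 0 member probes, as without it. At 3 months, where the mice share only a number, the replicate block lowered the count of member probes past the adjusted threshold from 3 to 1 and that of other CA pyramidal markers from 3 to 0, and calls over all probes from 2831 to 781. Taking the 75th percentile over all spots moved the median of all probes at 3 months from -0.123 to 0, lowered the other CA pyramidal count to 1 and the member probes differing between ages from 2 to 1, as the authors' log2 values also did (1). Array weights, for which limma reported that convergence was not reached, gave 2 member probes at 1 month (both of Spock1), 6 differing between ages and 5 other CA pyramidal markers, and 3174 calls over all probes at 1 month against 0. Keeping dim spots raised the member probes past the study's thresholds at 3 months from 1 to 2. Leaving out each mouse gave 2 to 3 member probes past the adjusted threshold at 3 months, 1 to 2 past the study's thresholds (2 without TgproNGF#3 replicate 3, WT replicate 1 or WT replicate 2), 0 to 1 at 12 months (Wfs1, 1.01, without WT replicate 3) and 0 to 4 other CA pyramidal markers. Without Spock1 the CA1 minus CA3 difference at 3 months moved from 0.63 to 0.02.

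Among differences not past the threshold, signs turned with array weights for Fibcd1 (-0.20) and Wfs1 (0.12) at 1 month, Pou3f1 at 12 months (-0.03), and the second probes of Man1a at 1 month (0.04) and Spock1 at 12 months (0.14). They turned with dim spots kept for Iyd at 1 month (0.13) and the second Spock1 probe at 12 months (0.14), and with quantile normalization for Iyd (0.02) and the second Man1a probe (0.04) at 1 month and the second Spock1 probe at 12 months (0.21). Median scaling turned these second probes to 0.01 and 0.09. The normexp correction turned Man1a (-0.0004) and the second Spock1 probe (-0.05) at 1 month and the second Man1a probe at 12 months (-0.09). The 75th percentile over all spots turned Mpped1 at 1 month (-0.02, as did the authors' log2 values, -0.02) and the second Spock1 probe at 12 months (0.02). The array row block turned Wfs1 at 12 months to -0.32. Leaving out single mice gave ranges across 0 at 1 month for Fibcd1 (-0.02 to 0.22), Man1a (-0.04 to 0.31), Mpped1 (-0.11 to 0.22), Wfs1 (-0.17 to 0.01) and the second Man1a probe (-0.19 to 0.09), and at 12 months for Bok (-0.13 to 0.21), Fibcd1 (-0.0013 to 0.26), Nptx1 (-0.08 to 0.23), Pou3f1 (-0.02 to 0.20) and the second probes of Man1a (-0.08 to 0.29) and Spock1 (-0.16 to 0.19). The cause of these changes was not tested. No sign of a main probe turned at 3 months. Iyd and the second probe of Spock1 were near background, and passed the filter on dim spots on 6 and 17 arrays. Their SE was 0.21 for Iyd at 1 month, and 0.245 and 0.251 for the Spock1 probe at 1 and 12 months. These were not the largest, since the main probe of Man1a had an SE of 0.368 at 3 months and Wfs1 one of 0.356 at 12 months.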
